A study of Mus musculus with 168 samples.

Results

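The interferon-inducible GTPases considered were 9 mouse genes, taken by symbol from the array's probe annotation: Gbp2, Gbp3, Gbp7 and Gbp9 of the guanylate-binding proteins, and Irgm1, Irgm2, Igtp, Iigp1 and Gm12250 of the immunity-related GTPases. Of these, 6 had a probe set of their own, 1 each, among 19752 genes that had one. Genes with several were represented by the brightest on average. Gbp9 is also named by a probe set with Gbp4, Gbp6, Gbp8, Gbp10 and Gbp11, which was not used. Gbp2 was measured only by a probe set that also names Gbp2b, and Irgm2 and Igtp only by a probe set that names both. Those 2 shared probe sets are written Gbp2/Gbp2b and Irgm2/Igtp, and their values cannot be assigned to either gene. All counts of members below are over the 6 genes with their own probe set, and the shared probe sets are given beside them.

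The study gave JAK inhibitors by gavage to male C57BL/6 mice aged 6 weeks and measured RNA of sorted immune cells on Affymetrix Mouse Gene 1.0 ST arrays. The inhibitor groups received SB00513404 (20 arrays), SB00526221 (32), SB00526222 (43), SB00526226 (18) or SB00526228 (9), and the vehicle groups received 0.5% MC as plain vehicle (39 arrays) or the same vehicle at pH 3 (7 arrays). Compounds are known only by these codes and the labels give no dose. The labels name no other treatment and no mutant allele. From spleen came MF (sorted as F4/80+, 33 arrays), DC (FLT3+, 20), NK (NK1.1+, 27), T4 (CD4+, 39) and GN (Ly6G+, 16), and from the peritoneal cavity MF (33 arrays, sorted as F4/80+ in experiment J12 and as F4/80+ ICAM2+ in J23 and J25). Prolonged schedules were 14 to 28 treatments with cells taken 14 to 18 h after the last. A 4 h schedule followed 3 treatments, and all its arrays belong to experiment J2. Single treatments were followed for 1.5 to 6 h (early) or 18 to 28 h (late), in peritoneal MF and a few T4 arrays. Experiments are named by the letter and number that open each array's title.

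Each sorted set carried its own markers, given as the mean log2 intensity of a marker list: 10.94 for the dendritic cell list in DC, 12.33 for the NK list in NK, 11.47 for the CD4 T cell list in T4 and 12.45 for the granulocyte list in GN. The arrays labelled spleen MF went against their tissue label. Their large peritoneal macrophage list (4 genes measured) averaged 11.73, from 11.17 to 11.99, against 11.66 in peritoneal MF, while their red pulp macrophage list stood at 6.92, against 7.02 in peritoneal MF and 8.79 in DC. They are called spleen-labelled MF below. In plain vehicle arrays, spleen-labelled and peritoneal MF differed in 51 of 12616 features (0.404%). In T4 the granulocyte list ranged up to 9.78 (median 5.65) and the dendritic cell list up to 8.89 (median 6.38). By their mean rank correlation with the other arrays of their set, 4 spleen-labelled MF, 2 DC, 5 NK, 6 T4, 2 GN and 1 peritoneal MF arrays stood apart.

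Interferons bind receptors whose Janus kinases phosphorylate STAT proteins. Interferon target promoters carry GAS elements, to which STAT proteins bind, and ISRE-type elements, to which interferon regulatory factors such as IRF1 bind. Both GTPase families are among the strongest interferon targets in mouse cells. Guanylate-binding proteins and the effector immunity-related GTPases Iigp1 and Gm12250 (also called Irgb10) coat and break the vacuoles of parasites and bacteria such as Toxoplasma and Chlamydia. Irgm1, Irgm2 and Igtp (also called Irgm3) are regulatory members that sit on the host's own membranes and hold the effectors inactive there.

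The promoter sequences below show where such elements lie in the members. RefSeq promoter entries of GRCm38.p6 were found for 7 of the 9 members, as 8 promoters because Gbp3 has a pair of start sites. The 150 bases before the start site are shown 5′ to 3′ on the gene's strand, with capitals marking matches to the ISRE-type motif (GAAA, any 2 bases, GAAA, or TTTC, any 2 bases, TTTC when read on the other strand) and to the GAS-type motif (TTCNNNGAA, the same on both strands).
Gm12250: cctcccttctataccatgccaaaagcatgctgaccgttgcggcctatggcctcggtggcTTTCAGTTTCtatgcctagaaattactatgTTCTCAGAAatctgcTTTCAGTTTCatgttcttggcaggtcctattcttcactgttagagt
Irgm1: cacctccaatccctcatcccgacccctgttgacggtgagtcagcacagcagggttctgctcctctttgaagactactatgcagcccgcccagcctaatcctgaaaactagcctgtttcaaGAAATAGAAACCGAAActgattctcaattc
Irgm2: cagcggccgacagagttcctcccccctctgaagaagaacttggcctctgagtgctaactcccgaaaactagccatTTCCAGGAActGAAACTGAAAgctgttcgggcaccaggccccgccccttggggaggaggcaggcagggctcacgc
Igtp: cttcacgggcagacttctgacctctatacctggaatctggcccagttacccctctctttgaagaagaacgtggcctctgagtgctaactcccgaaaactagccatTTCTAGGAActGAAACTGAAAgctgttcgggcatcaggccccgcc
Gbp2: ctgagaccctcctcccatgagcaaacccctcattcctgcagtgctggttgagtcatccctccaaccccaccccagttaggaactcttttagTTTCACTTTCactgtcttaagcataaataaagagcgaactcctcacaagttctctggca
Gbp3: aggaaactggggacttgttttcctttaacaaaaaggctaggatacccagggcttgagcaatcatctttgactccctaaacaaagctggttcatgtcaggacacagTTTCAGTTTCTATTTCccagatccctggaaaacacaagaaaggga
Gbp7: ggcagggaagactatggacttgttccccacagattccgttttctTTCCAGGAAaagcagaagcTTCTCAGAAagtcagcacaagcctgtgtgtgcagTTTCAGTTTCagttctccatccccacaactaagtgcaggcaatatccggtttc
These windows lie at chr11:58183693-58183842 (Gm12250, plus strand), chr11:48871421-48871570 (Irgm1, minus strand), chr11:58214827-58214976 (Irgm2, plus strand), chr11:58199406-58199555 (Igtp, plus strand), chr3:142620513-142620662 (Gbp2, plus strand), chr3:142559894-142560043 (Gbp3, plus strand, the upstream start site) and chr3:142530186-142530335 (Gbp7, plus strand). The full promoter entries, 250 bases before to 50 after the start, were searched. An ISRE-type match was present in 7 of the 8 promoters, against 3.44% of 32851 mouse promoters of the same length. A GAS-type match was present in 4 of the 8, against 8.3% of all promoters. Gm12250, Irgm2, Igtp and Gbp7 held both types, as did 0.454% of all promoters. In Gm12250 a GAS-type match at -61 to -53 lay between ISRE-type matches at -91 to -82 and -46 to -37. In Irgm2 and Igtp the GAS-type match stood next to the ISRE-type match in the same order. The promoters of Irgm2 and Igtp also share an identical run of 61 bases, so they are not separate examples in the counts above. The Irgm1 and Gbp3 matches are pairs of ISRE-type matches that overlap each other. A match is a match of letters and was not tested for binding.

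In plain vehicle arrays every member with its own probe set differed between the 6 sorted sets, and so did both shared probe sets (limma's moderated F test with Benjamini-Hochberg adjustment over 12616 features). That test called 93.3% of all features, so the calls set these genes apart from few others. The adjusted p ran from 4.2e-19 for Gbp3 to 9.1e-07 for Gm12250. Iigp1 entered this fit only through the T4 arrays in which it is high, as given below. What differed between members was the order of the cells. Values are mean log2 intensity ± SD over 8 spleen-labelled MF, 6 DC, 3 NK, 8 T4, 5 GN and 9 peritoneal MF arrays, and they compare cells for 1 probe set, not probe sets with each other. In bulk RNA, more cells expressing a gene and more RNA per cell cannot be told apart.

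**Figure D1:**
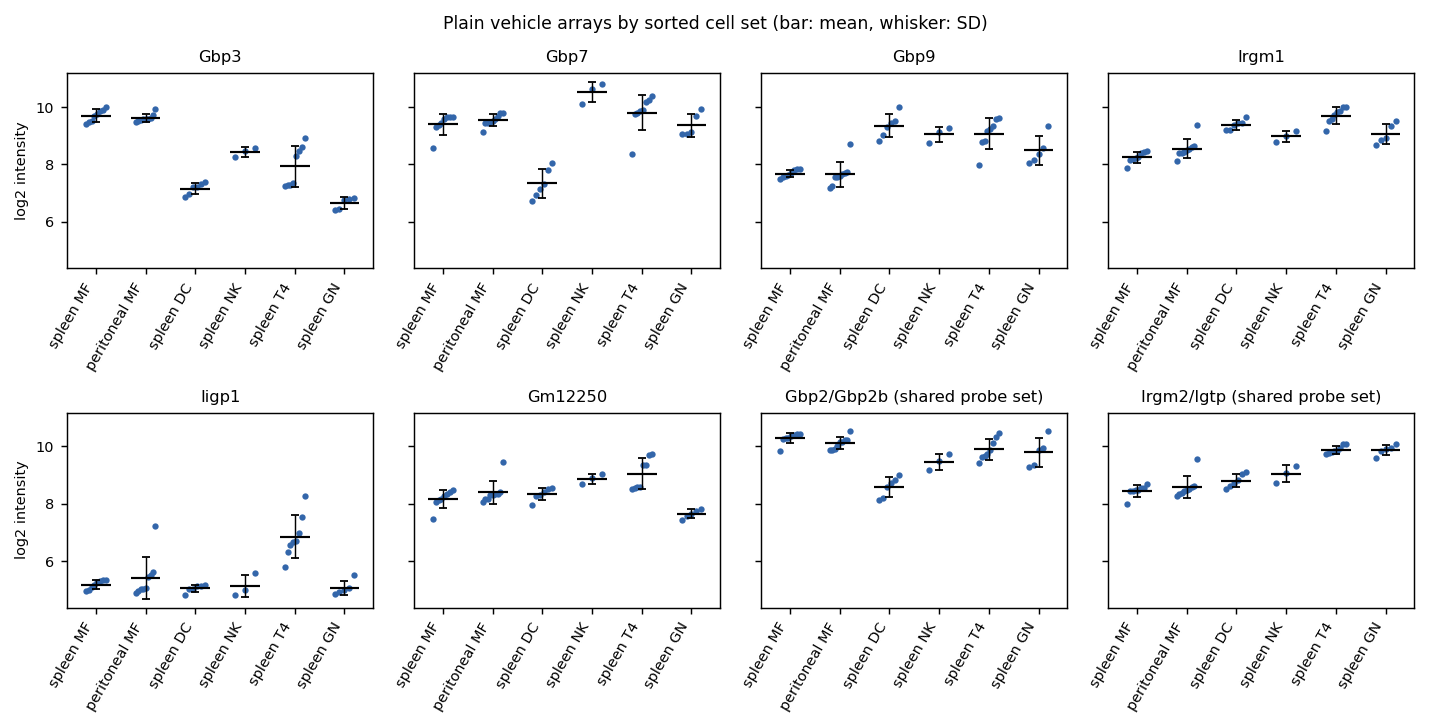
Log2 intensity (y axis) of each member and shared probe set in plain vehicle arrays of the 6 sorted sets (x axis). Points are single arrays, horizontal bars are means and whiskers are SDs. Gbp3 is highest in both MF sets, Gbp7 is lowest in DC, and Iigp1 is high only in some T4 arrays and in 1 peritoneal MF array.

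Among the guanylate-binding proteins, Gbp3 was highest in the macrophage sets. It averaged 9.70 ± 0.22 in spleen-labelled MF and 9.62 ± 0.14 in peritoneal MF, then 8.44 ± 0.18 in NK, 7.94 ± 0.71 in T4, 7.16 ± 0.20 in DC and 6.65 ± 0.20 in GN. The steps from peritoneal MF to NK (1.18), T4 to DC (0.78) and DC to GN (0.51) passed the test, and the other neighbours did not. The wide SD in T4 followed the experiment: vehicle arrays of J2 and J25 lay between 7.25 and 7.37, and those of J3, J6 and J8 between 8.30 and 8.94. The step from T4 to DC was absent in J2, where the T4 vehicle array stood at 7.37 and the DC vehicle arrays at 7.31 and 7.38. Gbp7, which in mouse macrophages takes part in oxidative killing of bacteria, ran the other way for NK and T4. It averaged 10.52 ± 0.35 in NK, 9.81 ± 0.62 in T4, 9.54 ± 0.21 in peritoneal MF, 9.41 ± 0.37 in spleen-labelled MF and 9.37 ± 0.40 in GN, but 7.34 ± 0.51 in DC. Only the step from GN to DC passed, at 2.03.

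Gbp9, encoded in a separate guanylate-binding protein cluster, had nearly the reverse order of Gbp3. It averaged 9.36 ± 0.41 in DC, 9.07 ± 0.54 in T4, 9.05 ± 0.27 in NK and 8.50 ± 0.51 in GN, and 7.68 ± 0.13 and 7.66 ± 0.43 in spleen-labelled and peritoneal MF. The step from GN to spleen-labelled MF (0.81) was its only one past the test. The shared Gbp2/Gbp2b probe set, for proteins recruited to the Toxoplasma vacuole in mouse cells, was high in MF (10.29 ± 0.19 spleen-labelled, 10.11 ± 0.22 peritoneal) and lowest in DC (8.57 ± 0.35). DC were thus lowest for Gbp7 and Gbp2/Gbp2b and highest for Gbp9.

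Among the immunity-related GTPases, T4 had the highest mean for every member and shared probe set. The step from T4 to the next set passed only for Iigp1. Irgm1, needed for resistance to mycobacteria in mice, averaged 9.70 ± 0.28 in T4, 9.38 ± 0.17 in DC, 9.06 ± 0.34 in GN, 8.98 ± 0.19 in NK, 8.56 ± 0.34 in peritoneal MF and 8.25 ± 0.20 in spleen-labelled MF. Its neighbours differed past limma's test only between NK and peritoneal MF (0.42, adjusted p = 0.0494), a call lost with experiment in the model (adjusted p = 0.0898). With the animal as a random block the step from DC to GN passed too (0.33, adjusted p = 0.0436). Irgm2/Igtp stood at 9.89 ± 0.14 in T4 and 9.88 ± 0.17 in GN, 0.83 above the 9.04 ± 0.30 of NK, a step that passed. DC, peritoneal MF and spleen-labelled MF followed at 8.80 ± 0.23, 8.58 ± 0.38 and 8.46 ± 0.21. GN were thus near the top for this probe set.

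Gm12250 averaged 9.05 ± 0.54 in T4, 8.87 ± 0.17 in NK, 8.39 ± 0.41 in peritoneal MF, 8.34 ± 0.21 in DC, 8.17 ± 0.32 in spleen-labelled MF and 7.65 ± 0.16 in GN. The only step past the test was the last one, 0.52 between spleen-labelled MF and GN, and with experiment in the model that from peritoneal MF to DC passed too (0.74, limma adjusted p = 0.0496). In J2 the Gm12250 value of the T4 vehicle array lay below those of the NK vehicle arrays. Iigp1 was near the bottom of the scale in most sets, with means of 5.05 to 5.42, and averaged 6.86 ± 0.76 in T4. It was above its array's median in 3 of the 8 T4 vehicle arrays, in 1 peritoneal MF vehicle array and in no other vehicle array. Its only step past the test was T4 to peritoneal MF (1.44). Iigp1 met the filter of 3 vehicle arrays above the median only through T4. Its calls, here and in the counts of members and steps, are therefore no separate support for a high level in T4. Over all 6 members, 8 of 30 neighbouring steps passed in the fit on cell set alone, and none of them separated the 2 MF sets. With experiment in the model Gbp3 was higher in peritoneal than in spleen-labelled MF by 1.00 (adjusted p = 0.0162), although the 2 sets share no experiment. The same pairs of sets differed in 77% (GN and spleen-labelled MF), 69.3% (GN and DC), 57.4% (T4 and peritoneal MF), 47.5% (NK and peritoneal MF) and 47.2% (T4 and DC) of all features, and for Irgm2/Igtp GN and NK differed in 63.1%.

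Inhibitor arrays were set against plain vehicle in 14 comparisons, with limma fits that held group and experiment and adjusted over every feature tested in that cell set. A feature was tested where its value exceeded the array's median in at least 3 arrays of the set. Iigp1 passed this in T4 only, and Gbp3 passed everywhere but in GN. Over the 14 comparisons, 61 of 71 member tests lay below 0, against 48% of all features. At an unadjusted p under 0.05, 14 were lower and 0 higher, against 2.53% of all features lower. Of these 14 tests, GN at 4 h and peritoneal MF early gave 4 each. After adjustment 1 member test passed, Gm12250 in peritoneal MF early after a single treatment (background 0.0221%). The difference was below 0 in all 14 comparisons for Gm12250 and for Irgm2/Igtp. The 4 h and prolonged comparisons of a cell set share vehicle arrays, as do the late and 14-treatment comparisons in peritoneal MF, so these are not independent repeats. Members also vary together over arrays, so tests of different members are not independent either. No vehicle array had the 4 h schedule, so inhibitor and schedule cannot be told apart there.

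**Figure D2:**
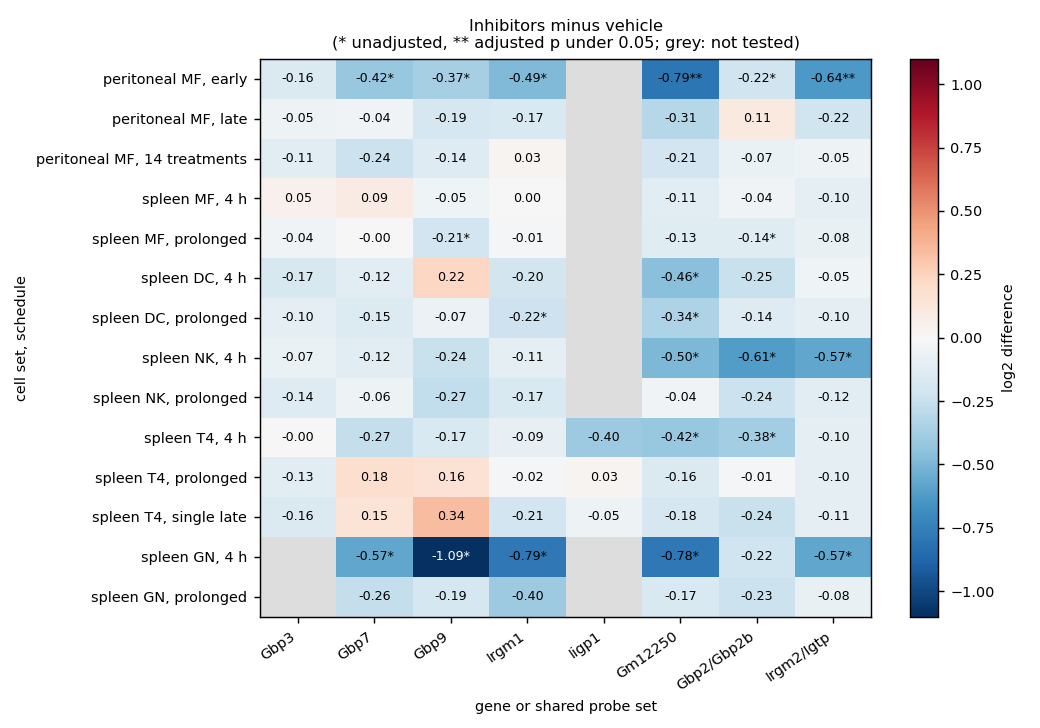
Heat map of the log2 difference, inhibitor minus plain vehicle, for each member and shared probe set in the 14 comparisons. One asterisk marks an unadjusted p under 0.05 and a pair of asterisks an adjusted p under 0.05, and grey cells were not tested. Peritoneal MF early carries the only cells past adjustment, Gm12250 at -0.79 and Irgm2/Igtp at -0.64.

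Peritoneal MF early after a single treatment gave the clearest difference. At 3 h in J12, Gm12250 stood at 7.49 and 7.66 with SB00513404, at 7.42 and 7.55 with SB00526221 and at 7.46 and 7.71 with SB00526222, against 9.45, 8.31 and 8.15 with vehicle. At 3 h in J25 it stood at 7.53 and 7.70 with SB00513404, against 8.33 and 8.17 with vehicle. In J23 SB00513404 gave 7.60 at 1.5 h, 7.84 at 3 h and 8.20 at 6 h, and SB00526222 gave 8.40 at 6 h, against 8.29 in the only vehicle array, at 6 h. All inhibitor arrays at 1.5 and 3 h were below all vehicle arrays, and those at 6 h lay among the vehicle arrays. Gm12250 fell 1.73-fold over all 12 early inhibitor arrays against 6 vehicle arrays, from the fit with experiment as a term (log2 difference -0.79, SE 0.15, limma with Benjamini-Hochberg adjusted p = 0.0216). Its means were 7.71 ± 0.30 and 8.45 ± 0.50, and 11 of 12 inhibitor arrays were below the vehicle mean of their own experiment. Of 10812 features, 0.0832% were called in this comparison.

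The call leaned on few arrays. The J12 vehicle array at 9.45 was also the highest early vehicle array for Irgm1 (9.37), Gbp9 (8.698), Gbp3 (9.94), Iigp1 (7.22) and Irgm2/Igtp (9.55). Without it the Gm12250 difference was -0.57 with adjusted p = 0.0388. Leaving out each of the 18 arrays in turn kept the call in 12 fits, with differences of -0.89 to -0.57 and adjusted p of 0.0093 to 0.0683. The 6 arrays without which it was lost were SB00526221 replicates 1 and 2, SB00513404 replicates 1 and 6 and vehicle replicates 2 and 5, with adjusted p of 0.0527 to 0.0683. Within experiments the difference of means was -1.09 in J12, -0.28 in J23 and -0.64 in J25. With experiment left out of the model the adjusted p of Gm12250 was 0.0541 and 0 members passed.

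**Figure D3:**
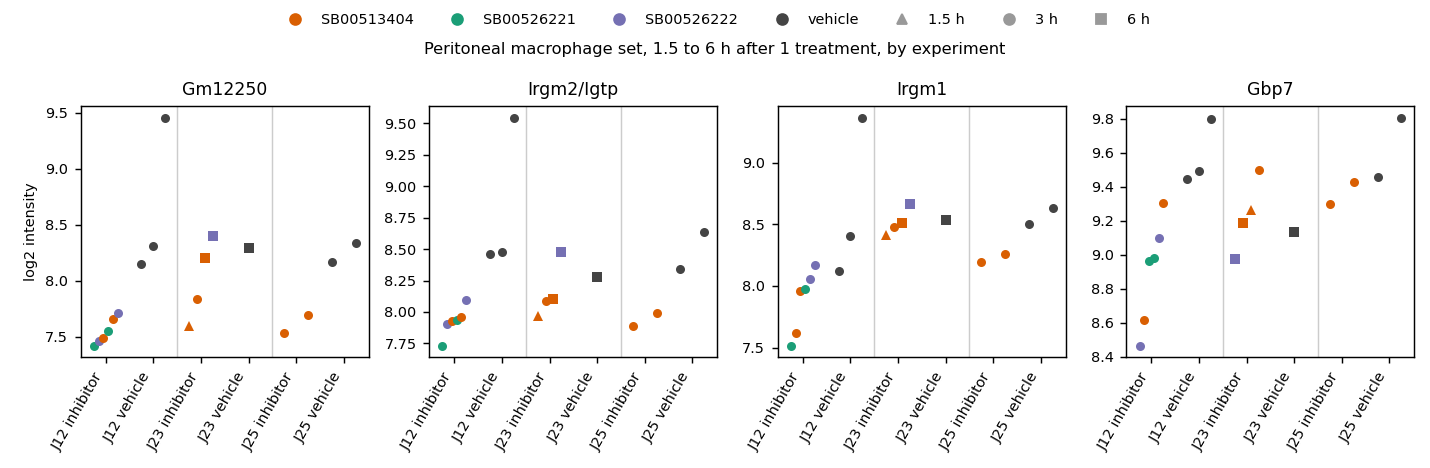
Log2 intensity (y axis) of Gm12250, Irgm2/Igtp, Irgm1 and Gbp7 in single peritoneal MF arrays early after a single treatment, by experiment, with inhibitor arrays left of vehicle arrays (x axis). Colour gives the compound and shape the hours since treatment. Gm12250 lies at 7.42 to 7.84 in inhibitor arrays at 3 h and at 8.15 or above in vehicle arrays at 3 h.

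Irgm2/Igtp moved with Gm12250. In J12 it stood at 7.93 and 7.96 with SB00513404, 7.94 and 7.73 with SB00526221 and 7.91 and 8.09 with SB00526222, against 9.55, 8.46 and 8.47 with vehicle. In J25 it stood at 7.89 and 7.99 with SB00513404, against 8.634 and 8.34 with vehicle. In J23 it stood at 7.96, 8.09 and 8.11 with SB00513404 at 1.5, 3 and 6 h and at 8.48 with SB00526222, against 8.28 with vehicle. Again the arrays at 1.5 and 3 h were below all vehicle arrays. At 6 h the SB00513404 array (8.11) was below them too, and the SB00526222 array (8.48) was not. The shared probe set fell 1.55-fold (-0.64, SE 0.13, limma adjusted p = 0.0478). Without the high J12 vehicle array the difference was -0.44 with adjusted p = 0.0853, and it passed in 3 of 18 fits that left out 1 array. Without the filter on low values its adjusted p was 0.0584, and without the experiment term 0.0541. Within experiments it was -0.90, -0.12 and -0.55 in J12, J23 and J25.

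The other members were lower by less and passed no adjustment. Irgm1 averaged 8.15 ± 0.35 with inhibitor and 8.59 ± 0.42 with vehicle (-0.49, limma adjusted p = 0.483). Its within-experiment differences were -0.75 in J12, -0.02 in J23 and -0.34 in J25. Gbp7 averaged 9.09 ± 0.31 with inhibitor and 9.52 ± 0.25 with vehicle (-0.42, adjusted p = 0.483), and within experiments the difference was -0.67, 0.10 and -0.27. Gbp9 differed by -0.37 and Gbp2/Gbp2b by -0.22, and Gbp3, the member with the highest level in MF relative to other cells, differed by -0.16. Iigp1 was above its array's median only in the high J12 vehicle array and was not tested.

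The 9 inhibitor and 5 vehicle arrays at 3 h were also taken alone, a choice made after seeing the data. Gm12250 then ranged from 7.42 to 7.84 (median 7.55) with inhibitor and from 8.15 to 9.45 (median 8.31) with vehicle, and Irgm2/Igtp from 7.73 to 8.09 (median 7.94) with inhibitor and from 8.34 to 9.55 (median 8.47) with vehicle. Neither overlapped, as was the case for inhibitor below vehicle in 0.222% of features. The differences were -0.94 and -0.78, but with fewer arrays the limma adjusted p were 0.117 and 0.150. Gbp7 ranged from 8.46 to 9.50 with inhibitor and from 9.45 to 9.81 with vehicle, and so overlapped at its edge.

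The difference was smaller later. After 18 h in J25, Gm12250 stood at 7.59 and 7.79 with SB00513404 and at 8.02 and 8.08 with SB00526222, while in J23 it stood at 8.36 and at 8.04 and 8.12 with the same compounds, against 8.08 in the J23 vehicle array at 19 h. At 28 h SB00513404 gave 8.13. After 14 treatments and 18 h in J25, SB00513404 gave 7.69 and 7.66 and SB00526222 gave 8.45 and 8.02, against 8.40 and 8.35 with vehicle. The SB00513404 arrays of J25 were low at 18 h on both schedules, and the other late arrays lay among or near the vehicle arrays. The late difference was -0.31 (limma adjusted p = 0.932) and that after 14 treatments -0.21 (adjusted p = 0.997), with 0 features called in either (0%). For the other tested members the late differences ran from -0.19 (Gbp9) to -0.04 (Gbp7). The early minus late difference was itself tested: it was -0.48 for Gm12250 (SE 0.25, limma adjusted p = 0.880) and below 0 for all 5 tested members, against 31.3% of features, with 0% of features called. That test gives no call that the early and late effects differ.

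**Figure D4:**
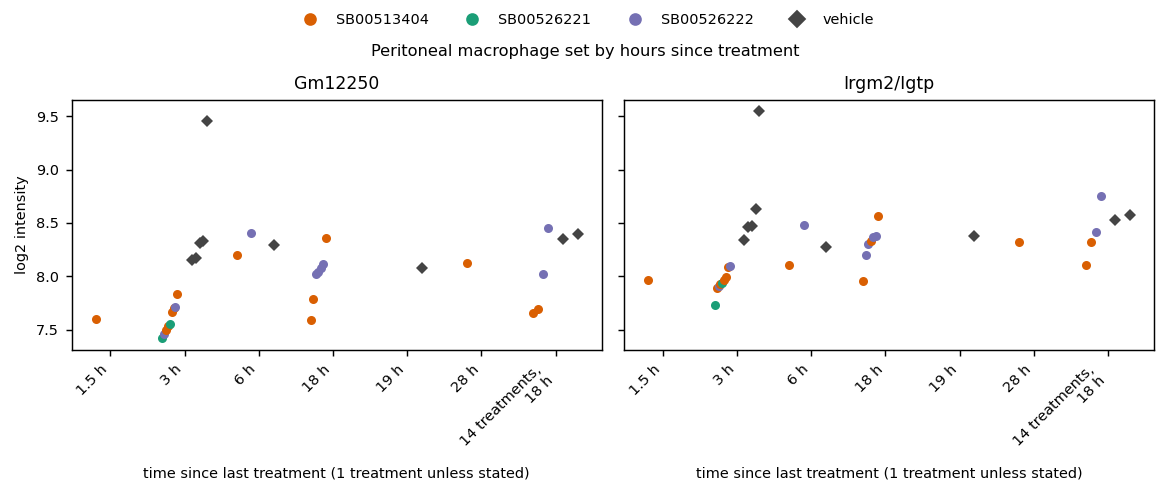
Log2 intensity (y axis) of Gm12250 and Irgm2/Igtp in peritoneal MF arrays by hours since a single treatment and after 14 treatments (x axis), with colour for compound or vehicle. Inhibitor arrays are lowest at 1.5 and 3 h, and most lie at vehicle level from 6 h on. J25 arrays of SB00513404 and, for Irgm2/Igtp, the SB00513404 array at 6 h are exceptions.

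GN at 4 h after 3 treatments held the largest fitted member difference of the 14 comparisons, and no member passed adjustment. Gm12250 stood at 6.51 with SB00526221, 6.98 and 7.02 with SB00526222 and 7.68 with SB00526226, against 7.83 in the J2 vehicle array and 7.65, 7.75, 7.43 and 7.58 in vehicle arrays of J3 and J6. Irgm1 stood at 7.70, 7.88 and 7.82, and 8.93 with the same compounds, against 8.87 in the J2 vehicle array and 8.6902 to 9.51 in the others. The SB00526221 and SB00526222 arrays were below all vehicle arrays for both genes, and the SB00526226 array was not. Over all 4 inhibitor arrays, 0 of the 4 tested members lay wholly below vehicle. No share of all features was computed for the split by compound, so it only describes these arrays. The 2 arrays of SB00526228 from J2, taken 14 h after the last treatment, stood at 7.79 and 7.67 for Gm12250 and at 9.11 and 8.93 for Irgm1, among the vehicle arrays.

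The fitted differences in GN were -1.09 for Gbp9, -0.79 for Irgm1, -0.78 for Gm12250 and -0.57 for Gbp7, all 4 tested members at an unadjusted p under 0.05 (background 3.75% lower), with limma adjusted p of 0.790 to 0.792. Only 0.0451% of features were called. The fit in effect set these arrays against the 1 vehicle array of J2, which was the highest of 5 for Gbp9 (9.33, the others 8.05 to 8.56) and Gbp7 (9.92, the others 9.05 to 9.68). Without the experiment term Irgm1 (-0.98, adjusted p = 0.0260) and Gm12250 (-0.60, adjusted p = 0.0457) passed, while Gbp9 was -0.26 and Gbp7 -0.02. Irgm2/Igtp stood at 9.17 to 9.60 with inhibitor, against 9.61 to 10.07 with vehicle, without overlap (1.44% of features), and its difference was -0.57. After prolonged treatment the GN differences were smaller, from -0.40 (Irgm1) to -0.17 (Gm12250), and none passed (0.027% of features did).

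In NK at 4 h, Gm12250 and both shared probe sets lay below vehicle in every inhibitor array. Gm12250 stood at 8.48 and 8.20 with SB00526221, 8.32 with SB00526222 and 8.22 and 8.27 with SB00526226, against 8.89 and 8.694 in J2 vehicle arrays and 9.04 in a J6 vehicle array. Irgm2/Igtp averaged 8.42 ± 0.10 with inhibitor and 9.04 ± 0.30 with vehicle, and Gbp2/Gbp2b 8.75 ± 0.07 with inhibitor and 9.46 ± 0.28 with vehicle. For all of these, the 5 inhibitor arrays were below the 3 vehicle arrays, as for 6.39% of features. The red pulp macrophage list moved the other way in its mean, at 6.77 to 7.63 with inhibitor, against 6.61 to 6.66 with vehicle, with 0 of 3 tested genes past adjustment, and its part in the differences was not tested. The differences were -0.50 (limma adjusted p = 0.343) for Gm12250, -0.57 (0.176) for Irgm2/Igtp and -0.61 (0.176) for Gbp2/Gbp2b, so none passed, where 0.118% of features did. One of the 3 vehicle arrays (replicate 1) stood apart over all features, and without it the differences were -0.44, -0.36 and -0.53. Gbp3, Gbp7, Gbp9 and Irgm1 differed by -0.24 to -0.07. After prolonged treatment Gm12250 differed by -0.04 and no member passed (0% of features). The 4 h minus prolonged difference of the same compounds was -0.46 for Gm12250 (adjusted p = 0.216) and -0.48 for Irgm2/Igtp (adjusted p = 0.0700). Over the 5 spleen cell sets 2 of 25 such member tests were lower at an unadjusted p under 0.05 and 0 passed, against 3.67% and 0.317% of features.

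In T4, Gm12250 at 4 h stood at 7.97 and 8.37 with SB00526221, 8.26 and 8.26 with SB00526222 and 8.30 with SB00526226, against 8.60 in the J2 vehicle array and 8.52 to 9.75 over the 7 vehicle arrays. The groups did not overlap, as for 0.382% of features, and the difference was -0.42 (limma adjusted p = 1.00, with 0.00889% of features called). Gbp2/Gbp2b at 4 h was also below vehicle without overlap (-0.38) and did not pass. The mean of the NK list also lay lower in these arrays, at 5.78 to 5.89, against 6.02 to 7.63 with vehicle. Experiments separated T4 arrays more than treatment did: Gm12250 lay at 8.52 to 8.60 in vehicle arrays of J2 and J25 and at 9.34 to 9.75 in those of J3, J6 and J8. Prolonged differences in T4 ran from -0.16 (Gm12250) to 0.18 (Gbp7), and 18 h after a single treatment from -0.21 (Irgm1) to 0.34 (Gbp9), and none passed (0% of features in both). In J25 there was 1 SB00513404 array and 1 vehicle array at 3 h after a single treatment, a comparison without replicates that was added after the data were seen. All 8 features were lower in the inhibitor array, as were 38.7% of all T4 features: Gm12250 at 7.60 against 8.56, Irgm1 at 8.78 against 9.82, Iigp1 at 5.68 against 6.67, Gbp2/Gbp2b at 8.95 against 9.65, and the other 4 by smaller amounts. In the fit of all T4 arrays, in which a single array is assumed to vary like the other groups, the limma adjusted p was 1.00 for each and 0% of features were called.

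In DC and spleen-labelled MF no member passed on either schedule. In DC after prolonged treatment Gm12250 ranged from 7.55 to 8.30 (median 8.01) with inhibitor and from 7.97 to 8.55 (median 8.36) with vehicle, a difference of -0.34 (limma adjusted p = 0.979, 0% of features called). It was lower in J2 (-0.36) and J6 (-0.59) and not in J3 (0.09). At 4 h the 2 DC arrays stood at 7.98 with SB00526222 and 7.93 with SB00526226, against 8.51 and 8.28 in J2 vehicle arrays and 7.97 to 8.55 over all 6 vehicle arrays. The fitted difference was -0.46 (SE 0.21, limma adjusted p = 0.808, 0% of features called). Irgm1 stood at 9.06 and 9.14 in these 2 arrays, against 9.19 to 9.66 with vehicle, without overlap (4.13% of features), and its difference was -0.20. Both 4 h arrays were also above all DC vehicle arrays in the mean of the macrophage list (9.41 and 9.42, against 8.706 to 9.12), the red pulp macrophage list (9.22 and 9.43, against 8.33 to 8.90) and the dendritic cell list (11.16 and 11.18, against 10.41 to 11.11). Of these lists 0 of 12 tested genes passed, and their part in the differences was not tested. In spleen-labelled MF the prolonged differences ran from -0.21 (Gbp9, from 7.09 to 8.05 with inhibitor and from 7.51 to 7.84 with vehicle) to about 0 (Gbp7), and those at 4 h from -0.11 (Gm12250) to 0.09 (Gbp7), where 0.00911% and 0.0182% of features passed. At 4 h the 4 Gbp7 arrays, at 9.68 to 10.08, were all above the 8 vehicle arrays, at 8.56 to 9.66, as for 1.02% of features. All 4 are from J2, where the only plain vehicle array stood at 9.66. Other J2 arrays were as high, with pH 3 vehicle at 9.74 and 10.12 and prolonged inhibitor at 9.31 to 10.02. The prolonged effect was not called different between the 5 spleen sets for any member in a fit of all spleen arrays together (limma's F test, adjusted p = 1.00 for each, 0.25% of features called). The lowest unadjusted p of these was 0.0808, for Irgm1.

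Single compounds were set against plain vehicle in 43 comparisons with 219 member tests, of which 0 passed adjustment (background 0.0606%). At an unadjusted p under 0.05, 29 were lower (2.58% of all features were) and 1 higher. Early in peritoneal MF, Gm12250 differed by -0.80 for SB00513404 (7 arrays, limma adjusted p = 0.0800), -0.97 for SB00526221 (2 arrays, adjusted p = 0.792) and -0.66 for SB00526222 (3 arrays, adjusted p = 0.967). The 95% intervals of the pairwise differences were wide, -0.70 to 0.36 for SB00526221 minus SB00513404, -0.30 to 0.56 for SB00526222 minus SB00513404 and -0.26 to 0.86 for SB00526222 minus SB00526221. After prolonged treatment SB00526221 had the lowest Gm12250 in spleen-labelled MF (-0.36, adjusted p = 0.220), against -0.07 for SB00526222, 0.04 for SB00526226 and 0.13 for SB00526228. For SB00526226 the Gm12250 difference varied in sign between sets and schedules. After prolonged treatment it was 0.32 in NK (4 arrays) and 0.18 in T4 (3 arrays), but -0.28 in DC (1 array). At 4 h it was -0.55 in NK (2 arrays), the lowest of the 3 compounds there, and with 1 array each -0.48 in DC, -0.35 in T4, -0.15 in GN and -0.07 in spleen-labelled MF. None of these passed, with limma adjusted p of 0.363 or above.

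Pairs of compounds of the same cell set and schedule were compared 26 times, with 136 member tests and 0 calls (background 0.00314%). At an unadjusted p under 0.05, 17 were higher in the compound named first and 0 lower, against 2.05% of features higher. The compound named first was always the one with the higher code number, an arbitrary order. Pairs also share arrays, so these tests are not independent. SB00526226 minus SB00526221 gave a higher Gm12250 after prolonged treatment in spleen-labelled MF (0.40, 95% interval 0.12 to 0.69), NK (0.47, 0.12 to 0.83) and T4 (0.47, 0.13 to 0.82), with limma adjusted p of 0.704, 1.00 and 0.629. These 3 sets share animals. Iigp1 in T4 gave the only compound test that was higher than vehicle at an unadjusted p under 0.05: SB00526226 stood at 8.03, 7.75 and 7.87, all from J8, against 8.26 and 5.79 in the J8 vehicle arrays and 6.31 to 7.55 in the other 5. The difference was 0.99 (adjusted p = 0.462), and against SB00526221 it was 1.32 (95% interval 0.57 to 2.07, adjusted p = 0.629). The low J8 vehicle array stood apart from the other T4 arrays and was also the lowest for Gbp7 (8.37).

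The vehicle at pH 3 had 3 arrays in spleen-labelled MF and 3 in T4 and was compared with plain vehicle there. None of 11 member tests passed (0% of features) or had an unadjusted p under 0.05, and 2 lay below 0, against 42% of features. Gm12250 differed by 0.12 and 0.16, Irgm1 by 0.08 and 0.21, and Gbp3 by -0.14 and 0.23 in spleen-labelled MF and T4.

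Across all arrays, after subtracting the mean of each cell set and experiment, the members varied together to different degrees. These correlations are descriptions over arrays that share animals and array runs. Gm12250 was closest to Irgm2/Igtp (r = 0.77) and Irgm1 was closest to Gm12250 (r = 0.71). Gbp9 and Gbp7 correlated at r = 0.67, while Gbp3 correlated at most at r = 0.50, with Gbp2/Gbp2b, and at r = 0.17 with Gbp9. Among 13196 other features, those most like the mean of the 6 members were Eif2ak2, which encodes the double-stranded RNA sensor kinase PKR (r = 0.80), Ifih1, which encodes the RNA sensor MDA5 (0.79), Ddx60 (0.77), and the ADP-ribosyltransferases Parp9 (0.77) and Parp14 (0.76). For single members the closest features were Gm1966 for Gbp7 (0.79), Ddx60 for Gbp9 (0.80), Parp9 for Iigp1 (0.56) and Irgm2/Igtp (0.78), and Zbp1, an innate nucleic acid sensor, for Gbp2/Gbp2b (0.50).

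Other interferon genes were followed in 3 lists beside the members. These lists were chosen with earlier results of these data known, so their counts only describe the data. Early in peritoneal MF, 6 of 17 tested genes of a type I interferon list fell and 0 rose, where 0.0832% of all features were called. The list median was -0.55 against 0.02 over all features. Among the genes that fell were Xaf1 (-0.83, limma adjusted p = 0.0019), Rtp4 (-1.70, adjusted p = 0.0061) and the RNA-activated synthetase Oas2 (-1.08, adjusted p = 0.0216). Of an interferon-gamma list 0 of 14 passed (median -0.08). Of a list of other interferon-inducible GTPases, which also named Mx1 and Mx2, 0 of 4 tested passed (median -0.30). The receptor genes Ifngr1 (0.14), Ifngr2 (0.05), Ifnar1 (0.10) and Ifnar2 (0.05) and the transcription factor Irf1 (-0.20) did not pass either. In some of the comparisons where no member passed, single type I list genes did. These were Ifi27l2a in spleen-labelled MF after prolonged treatment (-0.95, adjusted p = 0.0088), Ifit1 in NK at 4 h (-1.63, adjusted p = 0.0483), and Rsad2 (-1.73) and Ifit3 (-2.02) in GN at 4 h (adjusted p = 0.0395 for both). In the other comparisons without a member call, no type I list gene passed.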

How the data were processed

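The deposited table holds linear intensity per probe set per array. The authors derived it by RMA, with Affymetrix Power Tools named in the submitters' processing notes. Tool versions, and which arrays were normalized as 1 set, are not stated in the sources used. Log2 was taken of the deposited values without a pseudocount, since the lowest was 5.11. Of 24922 probe sets, 21425 carry 1 gene symbol, 1399 several and 2098 none, by the platform annotation, and 21347 were matched to RefSeq by gene identifier with 0 symbols changed. Precision is limited by the number of arrays per group.

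Each cell set was fitted with limma 3.58.1 in R 4.3.3, with group (compound and schedule) and experiment as fixed terms. Moderated two-sided tests were adjusted by Benjamini-Hochberg over all features tested in that set (10812 to 11248), with a threshold of 0.05. A group of 1 array is assumed to vary like the others. Figures and tables used Python 3.11.15 with pandas 2.3.3, numpy 2.4.6 and matplotlib 3.10.9. A title number within an experiment was taken as 1 animal (80 animals), so sets share animals. Replicate numbers follow array order and pair nothing, and a p-value here reflects array-to-array spread, part of which may be technical. The animal was a random block in the joint prolonged fit over spleen sets (within-animal correlation 0.0457). Vehicle arrays were compared between sets with the cell set as the only term, and the block (correlation 0.130) and experiment were alternatives.

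The members, lists and tests were chosen with earlier results of these data known. All members are named. Other genes named are the 5 most like the mean of the members, the 1 most like each member and up to 3 genes of each list past the threshold per main comparison, together with fixed receptor and Irf1 genes. The mean of members was planned over 9 genes and taken over the 6 with their own probe set. Simulated data held independent normal noise. In each set 100 features were shifted by 0.5 (log2) and another 100 by 1. The shift of 0.5 was recovered in 81% of its features early in peritoneal MF (10812 features). For prolonged treatment it was recovered in 20% in GN, 31% in NK, 51% in DC, 83% in T4 and 90% in spleen-labelled MF. So many changed features ease the adjustment, and in the data only 0.0832% were called early in peritoneal MF. These shares may therefore overstate what the data could recover. The 4 h comparisons were not simulated.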

Additional observations from a re-analysis of the deposited data

Results flagged for a closer look

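In groups of 4 to 10 arrays the highest or lowest array was compared with its nearest neighbour by Dixon's ratio at the 95% level. Of 152 such checks, 14 were past the critical value, where chance gives about 1 in 20. No explanation was tested.

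Of the 14 values, 5 belong to 1 array, the J12 vehicle replicate 1 of peritoneal MF early after a single treatment, each far above the other 5 vehicle arrays: Gm12250 at 9.45 (next 8.33), Irgm2/Igtp at 9.55 (next 8.634), Gbp9 at 8.698 (next 7.67), Iigp1 at 7.22 (next 5.51) and Gbp3 at 9.94 (next 9.63). That array was not among those standing apart over all features. In the same cells Gbp7 was low at 8.616 in SB00513404 replicate 1.

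In spleen-labelled MF vehicle arrays, replicate 1 of J2 was low for Gm12250 (7.46), Gbp2/Gbp2b (9.86) and Irgm2/Igtp (7.98), and replicate 6 of J8 was low for Gbp7 (8.56). Replicate 1 also stood apart over all features. Among inhibitor arrays of that set, Gm12250 was low at 7.41 in SB00526226 prolonged replicate 1, which stood apart as well, and Iigp1 was higher than in its group at 5.84 in SB00526222 prolonged replicate 3, still a low level. Gbp7 was low at 8.37 in T4 vehicle replicate 6, which stood apart, and Gbp9 was high at 8.99 in NK SB00526226 prolonged replicate 2.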

How the results depend on the processing

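Of 2237 recomputed values for 99 results on single members or shared probe sets, 2061 kept their direction and side of the threshold or moved by less than the spread, 138 moved, 33 lost the call, 5 gained it and 0 reversed. The number of members called early in peritoneal MF was 1, and it was 0 without the experiment term (Gm12250 adjusted p = 0.0541), 2 with array weights, 0 within J12, within J23 and within J25, 0 with only the 3 h arrays (chosen after seeing the data), and 0 to 1 when each array was left out in turn. In GN at 4 h it was 0, and 2 without the experiment term. Single compounds against vehicle gave 0 calls, against 1 with quantile normalization, 2 without the experiment term and 3 with array weights. The 4 h minus prolonged tests gave 0, against 3 without the experiment term, 1 with array weights and 1 without arrays standing apart. Pairs of compounds gave 0, against 2 without the experiment term and 1 with array weights. With array weights Gbp2/Gbp2b and Irgm2/Igtp also passed in NK at 4 h (adjusted p = 0.0256 and 0.0430). The baseline F test called 6 of 6 members under every alternative, with the animal as a replicate block too, and 7 to 11 of 30 neighbouring steps were called, 9 of them with that block, against 8. Between spleen cell sets 0 members were called with the block and 0 with no replicate block. The block changed no other result in these fits. Replicate numbers within groups follow array order, so they pair no samples. Limits are the few vehicle arrays per experiment (1 in J2 for GN, T4 and spleen-labelled MF), the missing vehicle of the 4 h schedule, the shared probe sets and, for Iigp1, values near the bottom of the scale.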
